A study of Arabidopsis thaliana with 12 samples.

Results

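The nuclear genes of the photosynthetic light reactions compared here between the flu mutant and wild type (WT) are PSBW, PSBY, PSAN, LHB1B2, LPA19 and AT1G76450. They are 6 of the 691 genes for which the platform annotation gives a probe of their own, and each has 1 such probe. Membership was chosen by gene name and probe annotation. The division into bright probes of structural proteins and dimmer probes of assembly or lumen proteins was selected on the intensities themselves, so signal levels are described without a test. On WT arrays LPA19 ranked 617 to 1152 and AT1G76450 992 to 1715 of 3439 probes. They are thus dim beside the structural probes, not among all probes in WT, and their lower ranks in flu are the difference itself. The differences between flu and WT were also known when the genes were put together. Their adjusted p-values come from the fit over all probes and say nothing about the group as such.

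The arrays hold total RNA of Arabidopsis thaliana plants of the Landsberg ecotype, 6 arrays from the flu mutant, which is mutated in the FLU gene, and 6 from WT. The FLU protein is a brake on chlorophyll synthesis in the dark. All plants had 12 h of darkness and were collected 30 min after the light came back on, so higher and lower mean relative to WT at that time, not a change over time. No source used here gives the flu allele, the age or the tissue, and the annotation lists 0 own probes for FLU and for the 15 tissue marker genes that were looked up.

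Photosystem II takes electrons from water and photosystem I passes them on toward NADP. Each is a core of reaction centre proteins made in the plastid, surrounded by small nuclear-encoded subunits and by antenna proteins that bind chlorophyll. Photosystem II is built stepwise and rebuilt after light damage, with helper proteins in the membrane and in the thylakoid lumen that are no part of the finished complex. A flu plant gathers protochlorophyllide at night, which sensitises the formation of singlet oxygen in the light, and the photosystem II reaction centre is a known site of singlet oxygen damage.

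The probes of the assembly factor LPA19 and of the PsbP-like lumen protein AT1G76450 were lower in flu than in WT, and for both the 6 flu arrays lay wholly below the 6 WT arrays. By the looser measure of pair means of arrays, described below, 28.0% of all tested probes were apart with flu lower. The share of all tested probes with the single arrays apart was not counted. The call of LPA19 was lost, at a log2 difference of -0.37 (adjusted p by limma = 0.065), when a dependence on probe number was removed. The probes of PSBW, PSBY, PSAN and LHB1B2 had log2 differences between -0.26 and 0.16 and did not pass the threshold. With the same dependence removed, PSBW passed, higher in flu at 0.46 (adjusted p by limma = 0.0385), though not in every such fit. PSBY, PSAN and LHB1B2 then stood at 0.63, 0.50 and 0.15 and did not pass. By limma with Benjamini-Hochberg adjustment over all 3128 tested probes, 0 of the 4 structural genes and 2 of the 2 assembly or lumen genes had an adjusted p under 0.05. Among all tested probes 38.9% passed, and 21.4% passed with a lower value in flu, and the 2 of 6 (33.3%) lies near these shares. AT1G76450 entered the test only through its WT arrays, and so its place in that count carries no weight. The median log2 difference of the 6 genes was -0.16, beside -0.04 over the 620 genes with an own tested probe. The contrast between the structural and the other genes was not tested. In bulk RNA, fewer cells of a kind and less RNA per cell cannot be told apart.

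**Figure D1:**
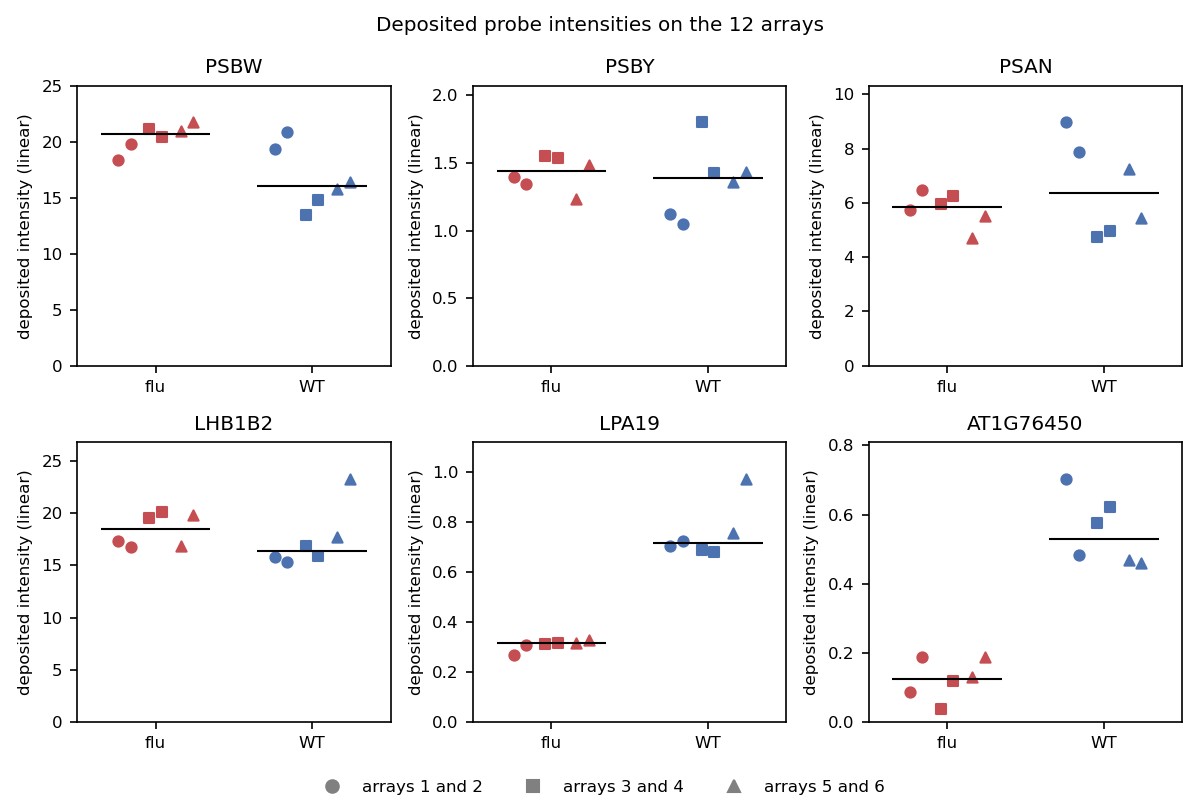
Deposited intensity (linear scale, vertical axis from 0) of the probe of each gene on the 6 flu arrays (red) and the 6 WT arrays (blue); symbols mark arrays 1 and 2, 3 and 4, 5 and 6, and the line is the median of a group. For LPA19 and AT1G76450 the groups are apart, at most 0.326 in flu against at least 0.678 in WT and at most 0.189 against at least 0.460; for the other 4 genes they overlap.

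The deposited table gives 1 intensity for each of 3439 probes and each array, with a highest value of 100 on every array. Array medians were 0.426 to 0.442 in flu and 0.443 to 0.491 in WT. Arrays 1 and 2, 3 and 4, and 5 and 6 of a group deviated together from the group mean (r 0.21 to 0.68, against -0.55 to -0.04 for other arrays of the same group). That partner was the closest array for all 12. Each such pair was therefore averaged and counted as 1 replicate, which leaves 3 pair means a group. Nothing in the labels says that replicates came from separate plants, and p-values then measure only the spread between these samples, which may be technical. Means below are of quantile-normalised intensities over these pair means, and values under the 25th percentile, 0.2496, were raised to that floor. The number of arrays limits the precision.

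PSBW is a small membrane-spanning subunit of photosystem II that sits where the core meets the antenna. Its deposited intensity had a lowest, median and highest value of 18.4, 20.7 and 21.8 on the flu arrays, and of 13.5, 16.1 and 20.9 on the WT arrays. The groups overlap only through WT arrays 1 and 2, at 19.4 and 20.9, while WT arrays 3 to 6 were all under every flu array, at 13.5 to 16.4. In rank the groups were alike: PSBW was between the 17th and 21st brightest of 3439 probes on flu arrays and between the 16th and 22nd on WT arrays. Quantile normalisation acts on the rank, and after it the mean was 18.5 ± 1.06 in flu against 18.0 ± 2.19 in WT (mean ± SD, n = 3 pair means). The log2 difference was 0.05 (SE 0.13, 95% interval -0.26 to 0.36, adjusted p by limma = 0.812). On the deposited scale without quantile normalisation it was 0.30 (adjusted p by limma = 0.182), and with each array scaled to the same median 0.40 (0.135).

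PSBY is a further small membrane subunit of photosystem II, near cytochrome b559, and its precursor is cut into PsbY-1 and PsbY-2. The deposited intensity had a lowest, median and highest value of 1.23, 1.44 and 1.55 in flu and of 1.05, 1.39 and 1.80 in WT. The flu values lie inside the WT range, in which arrays 1 and 2 were lowest and array 3 highest. Normalised means were 1.47 ± 0.120 in flu against 1.33 ± 0.2497 in WT (mean ± SD, n = 3 pair means). The log2 difference was 0.16 (SE 0.17, 95% interval -0.24 to 0.56, adjusted p by limma = 0.485), and flu was the higher in 3 of 3 pairs of the same number, by 0.36, 0.04 and 0.08.

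PSAN is a subunit of photosystem I on the lumen side, where plastocyanin docks to deliver its electron. Its deposited intensity had a lowest, median and highest value of 4.70, 5.85 and 6.48 in flu and of 4.76, 6.35 and 8.96 in WT. The groups overlap, and the WT arrays spread more widely, from 8.96 and 7.89 on arrays 1 and 2 to 4.76 and 4.98 on arrays 3 and 4. Normalised means were 6.01 ± 0.670 in flu against 6.39 ± 1.61 in WT (mean ± SD, n = 3 pair means). The log2 difference was -0.06 (SE 0.21, 95% interval -0.56 to 0.44, adjusted p by limma = 0.852). Flu was the higher in 1 of 3 pairs, with differences of -0.39, 0.43 and -0.22.

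LHB1B2 codes for a chlorophyll-binding protein of Lhcb1 type, the main component of the trimeric antenna of photosystem II. The deposited intensity had a lowest, median and highest value of 16.7, 18.5 and 20.1 in flu and of 15.4, 16.4 and 23.3 in WT. By median the flu arrays were the brighter, and the highest of all 12 values was that of WT array 6. By rank the order turned, since LHB1B2 was between the 18th and 24th brightest probe on flu arrays and between the 12th and 20th on WT arrays. Normalised means were accordingly 16.4 ± 1.61 in flu against 19.9 ± 3.03 in WT (mean ± SD, n = 3 pair means), with a log2 difference of -0.26 (SE 0.15, 95% interval -0.62 to 0.10, adjusted p by limma = 0.216). The sign depended on the scaling: the difference was 0.085 on deposited values and 0.19 with median scaling, and neither passed (adjusted p by limma = 0.671 and 0.357). No direction is given for LHB1B2. Lhcb1 genes resemble each other closely, and whether this probe also binds transcripts of its relatives was not tested.

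LPA19 is a lumen protein related to Psb27 of cyanobacteria and helps in the processing of the D1 reaction centre protein when photosystem II is assembled. The deposited intensity had a lowest, median and highest value of 0.267, 0.314 and 0.326 on flu arrays and of 0.678, 0.714 and 0.972 on WT arrays. The groups do not overlap, and the highest flu array was less bright than any WT array. All 12 values were above the floor. Normalised means were 0.331 ± 0.019 in flu against 0.736 ± 0.105 in WT (mean ± SD, n = 3 pair means). WT was 2.20-fold above flu, a log2 difference of -1.14 (SE 0.14, 95% interval -1.47 to -0.81, adjusted p by limma = 0.0018). The pairs of the same number differed by -1.20, -0.96 and -1.27. In rank the probe stood between 2103 and 2391 on flu arrays and between 617 and 1152 on WT arrays. With the dependence on probe number removed, as described below, its difference was -0.37 and did not pass.

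AT1G76450 codes for a lumen protein of the PsbP family, named after the PsbP protein of the water-splitting complex. The deposited intensity had a lowest, median and highest value of 0.037, 0.125 and 0.189 on flu arrays and of 0.460, 0.529 and 0.704 on WT arrays. Every flu array was below every WT array. After normalisation the flu values were 0.054 to 0.217, under the floor on all 6 arrays, while all 6 WT values were above it with a mean of 0.536 ± 0.073 (SD, n = 3 pair means). With the flu values raised to the floor, the log2 difference of AT1G76450 was -1.08 (SE 0.13, 95% interval -1.40 to -0.77, adjusted p by limma = 0.0018). That is 2.12-fold lower in flu as fitted. It is a minimum only in that the flu values were raised to the floor, and the interval reaches smaller differences. The floored flu pair means show no spread of their own. The fit gave -1.37 without a floor, on the log2(value + 0.1) scale, and -1.75 with the floor at the 10th percentile. These sizes rest on flu values too dim to be measured, and the size of the difference depended on the floor chosen.

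**Figure D2:**
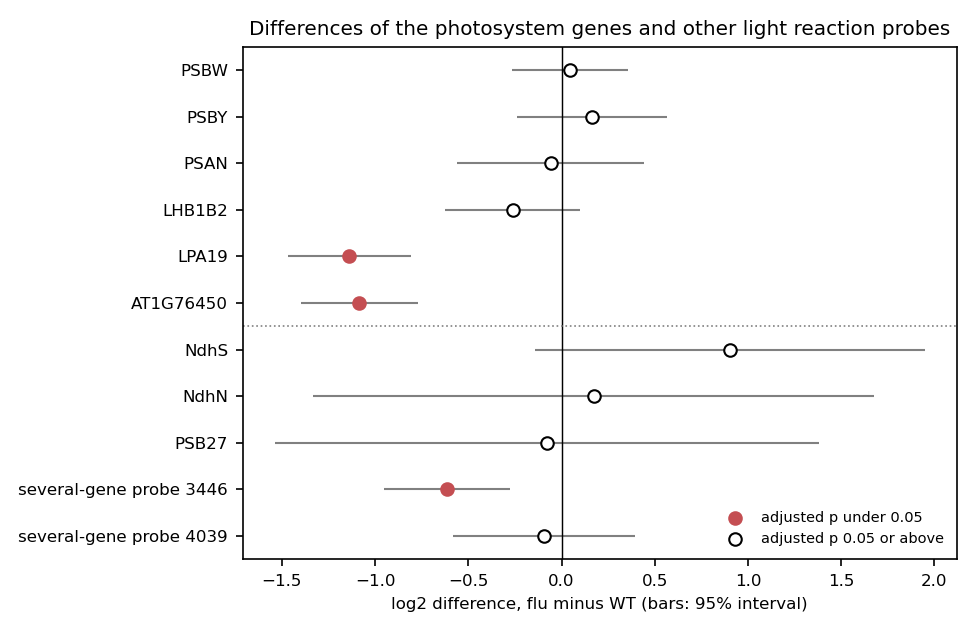
Log2 difference (flu minus WT, horizontal axis) with its 95% interval for the 6 genes, above the dotted line, and for other light reaction probes below it; filled points have a limma adjusted p under 0.05. LPA19 and AT1G76450 lie at -1.14 and -1.08, and the intervals of PSBW, PSBY, PSAN and LHB1B2 cover 0.

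The spread within a group was wider in WT than in flu for the 5 genes above the floor. The SD of the log2 pair means was 0.08 in flu and 0.17 in WT for PSBW, 0.17 in flu and 0.36 in WT for PSAN, and 0.09 in flu and 0.20 in WT for LPA19. Over all tested probes the median of this SD was 0.15 in flu and 0.26 in WT, so the wider WT spread was shared with the rest of the array. In this fit the intervals of the 4 structural genes reach a log2 difference of -0.62 on the lower side and 0.56 on the upper side. With the dependence on probe number removed, as described below, estimates lay beyond this for PSBY, at 0.63, and for PSBW on deposited values, at 0.69.

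The differences depended on the probe number. Probe numbers were sorted into classes that repeat with a fixed period, taken from earlier work on these data, and 33.9% of the variance in log2 difference over all tested probes lay between these classes. Other probes within 3 classes of LPA19 had a median log2 difference of -0.53, and 13 of those 75 were lower than LPA19. Those within 3 classes of AT1G76450 had a median of 0.42, and 2 of 75 were lower than AT1G76450. Since AT1G76450 was set to the floor on all flu arrays and entered the test only through WT, that place carries no weight. The structural genes lay among probes that were lower in flu, with neighbour medians of -0.31 for PSBW and LHB1B2, which share class 73, of -0.45 for PSBY and of -0.48 for PSAN. What lies behind the dependence was not tested.

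**Figure D3:**
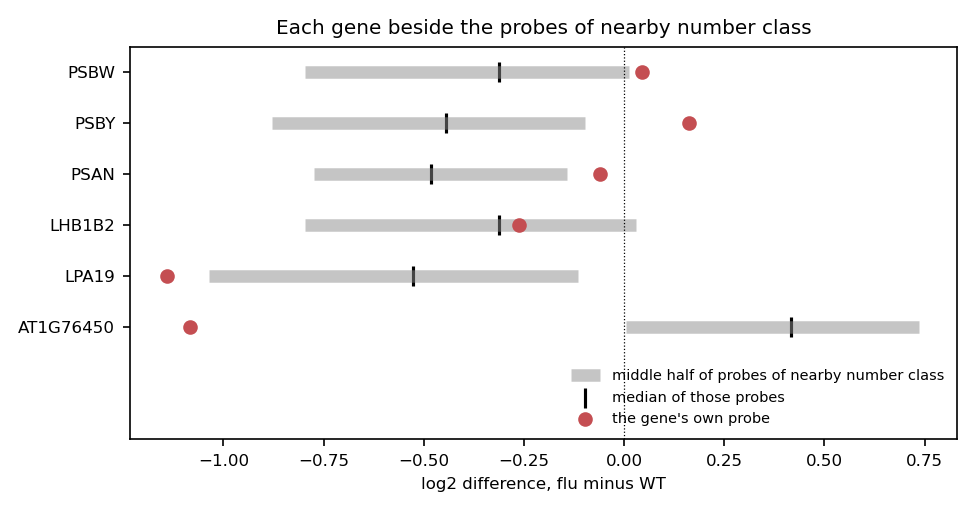
Log2 difference (flu minus WT, horizontal axis) of each gene's own probe (red) beside the other probes within 3 number classes (grey bar, 25th to 75th percentile, with the median as a black mark). AT1G76450 lies at -1.08, below its neighbours' median of 0.42, but its flu arrays were all set to the floor. LPA19 at -1.14 lies below a median of -0.53, and PSBW, PSBY and PSAN lie above theirs.

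When the running median over these classes was subtracted from each array, LPA19 was no longer past the threshold. It then had a log2 difference of -0.37 (SE 0.14, adjusted p by limma = 0.065). With 6 classes to each side it passed at -0.48 (adjusted p by limma = 0.028), and with deposited values at -0.53 (0.023). AT1G76450 remained lower in flu, at -1.67 with floored flu values and -1.86 without a floor, and both sizes rest on flu values at or under the floor. PSBW passed at 0.46 (adjusted p by limma = 0.0385), and at 0.69 (0.0075) on deposited values. It did not pass with 6 classes to each side, at 0.31 (0.132), or on the log2(value + 0.1) scale without a floor, at 0.40 (0.060). PSBY, PSAN and LHB1B2 had 0.63, 0.50 and 0.15, which did not pass (adjusted p by limma = 0.070, 0.066 and 0.618). PSBY also passed, at 0.63 (adjusted p by limma = 0.021), once the replicate block was added.

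**Figure D4:**
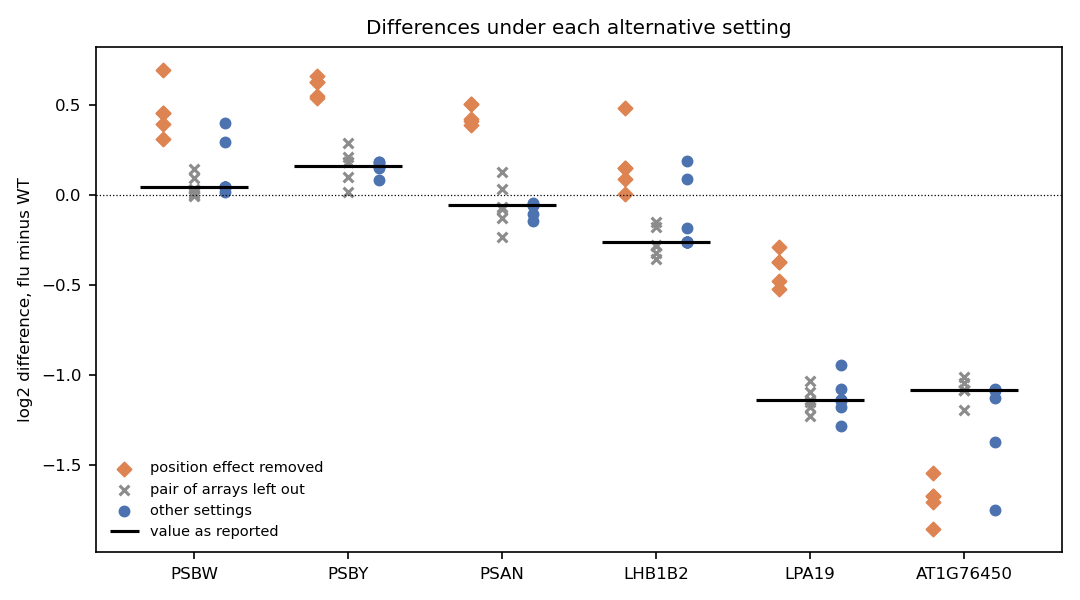
Log2 difference (flu minus WT, vertical axis) of each gene under every alternative setting; black lines are the values as reported, diamonds settings with the dependence on probe number removed, crosses fits with a pair of arrays left out, and dots other settings. LPA19 moves up to -0.29 and AT1G76450 down to -1.86 among the diamonds, and LHB1B2 falls on both sides of 0. AT1G76450 stays below -1, but its flu arrays are all under the floor, so this does not bear on its stability.

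Other genes of the light reactions were taken from a list of words such as photosystem, light-harvesting and thylakoid, which met 111 entries of the gene table. The words were sought in gene symbols and synonyms only, not in descriptions. Light reaction genes named otherwise are missed, as PSB27 below was. Beyond the genes above, 2 of them had an own tested probe and 0 of these 2 passed, higher or lower. NdhS and NdhN are subunits of the chloroplast NDH complex, which returns electrons from ferredoxin to plastoquinone. NdhS had deposited intensities with a lowest, median and highest value of 6.21, 7.09 and 7.53 in flu and of 2.11, 4.11 and 7.34 in WT. The log2 difference stood at 0.90 (SE 0.43, adjusted p by limma = 0.15), and the groups overlap through WT arrays 3 and 4. For NdhN it stood at 0.17 (SE 0.62, adjusted p by limma = 0.857).

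A further 2 probes are annotated to several genes that are all on that list, and no gene is named from them. One, annotated to 3 antenna genes at once, had a lowest, median and highest deposited intensity of 0.684, 0.880 and 0.962 in flu and of 1.13, 1.36 and 1.62 in WT, with no overlap. By the looser measure of pair means, 28.0% of all tested probes were apart with flu lower, and so was this probe. Its log2 difference was -0.62 (SE 0.14, adjusted p by limma = 0.015), and -0.23 (0.325) with the dependence on probe number removed. The other, annotated to 2 genes, had a log2 difference of -0.10 (SE 0.20, adjusted p by limma = 0.744).

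PSB27 codes for the other lumen protein of Psb27 type with an own probe, and was looked up after its values were seen. Its deposited intensity had a lowest, median and highest value of 0.330, 0.886 and 1.18 in flu and of 0.227, 1.25 and 1.41 in WT, so the flu range lies inside that of WT. The log2 difference was -0.08 (SE 0.60, 95% interval -1.54 to 1.38, adjusted p by limma = 0.936). This interval leaves the pairing by number out. Pairs of the same number differed by 0.29, -0.48 and -0.04 for PSB27, beside -1.20, -0.96 and -1.27 for LPA19, so LPA19 had the lower difference in 3 of 3 pairs. The 0.29 of PSB27 rests partly on the floor, since WT array 2 was under it. The difference between the genes was not tested.

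For each gene the 3 most similar of 619 other genes were sought by Pearson's r of the deviations from the group mean over the 12 arrays, as a description. Arrays of a pair share their deviations, so these are fewer than 12 independent points. Picking the highest of 619 also gives high values of r among unrelated genes, and how high was not tested. LPA19 was most like AT1G55440 (r = 0.86), CSLA01 (0.85) and AT2G25870 (0.83). LHB1B2 was most like SRX (r = 0.85), AT3G59300 (0.84) and AT3G12930 (0.84). PSBW was most like AT4G13220 (r = 0.83), AT1G62010 (0.82) and SPL (0.82). PSBY was most like AT2G40980 (r = 0.84), AT5G63830 (0.84) and AT3G27550 (0.83). PSAN was most like AT5G39410 (r = 0.88), AT4G38670 (0.87) and AT4G39690 (0.86). AT1G76450, which varies above the floor on the WT arrays alone, was most like AT5G58410 (r = 0.94), AT1G24040 (0.86) and AT1G31790 (0.83). None of the 6 was among the 3 most similar genes of another.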

How the data were processed

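The authors deposited 1 table of probe intensities on a linear scale; no source used here states the scanner, background correction or scaling. Probes were named through GEO's platform annotation (692 of 3439 have 1 gene, 870 several, 1877 none here) and the TAIR10.1 gene table, which held 690 of the 692. Arrays were quantile normalised, a floor was set at the 25th percentile, log2 was taken, and 311 probes that never exceeded the floor were left out. The fit of the pair means used limma 3.58.1 under R 4.3.3 (two-sided eBayes test, Benjamini-Hochberg over 3128 probes, threshold 0.05), which called 547 probes higher and 669 lower in flu. Pair means with the same number in flu and WT deviated together (r 0.46, 0.38 and 0.26), so a replicate block was run as an alternative; this pairing comes from the data. Genes, lists, pairs and the period of the probe number classes were chosen with earlier results of these data known. Named genes are all 6, every listed gene with an own tested probe, and the 3 most alike. Protein and promoter features were not analysed here. Alternatives covered scaling, floor, filter, replicate unit, block, probe number and left-out pairs.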

Additional observations from a re-analysis of the deposited data

Results flagged for a closer look

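In 12 sets of 6 arrays (6 genes, each in flu and in WT), 2 had an array far from the others by Dixon's ratio of gap to range. Chance flags about 1 in 20 sets of independent values, which these are not, since arrays come in similar pairs, and both sets point to the same array. For LHB1B2 in WT, array 6 stood at a normalised intensity of 26.9 with the next at 20.6 (ratio 0.656). For LPA19 in WT, array 6 stood at 0.954 with the next at 0.745 (ratio 0.666). Without WT array 6, an alternative added after the data were seen, the log2 difference of LHB1B2 was -0.18 (adjusted p by limma = 0.285) and that of LPA19 -1.08 (0.0014).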

How the results depend on the processing

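AT1G76450 was lower in flu in all 21 alternatives, with fitted log2 differences of -1.86 to -1.01. Its flu arrays are all below the floor and it entered the test only through WT, so these fits do not bear on its stability. LPA19 kept its direction in all 21 and passed in 18 (-1.29 to -0.29). The 3 in which LPA19 did not pass all have the position effect removed, that is the running median over probe number classes: -0.37 without and -0.37 with the replicate block (adjusted p by limma = 0.065 and 0.071), and -0.29 on the log2(value + 0.1) scale (0.128), where 1 of the 6 genes passed. PSBY kept its direction in all 21 and passed in 1. LHB1B2 turned positive in 7: 0.085 on deposited values, 0.19 with median scaling, and with the position effect removed 0.15 (with and without the replicate block), 0.0045 with 6 classes to each side, 0.089 on the log2(value + 0.1) scale and 0.48 on deposited values. PSAN turned positive in 7: 0.50 with the position effect removed (with and without the replicate block), 0.39 with 6 classes, 0.41 on the log2(value + 0.1) scale, 0.42 on deposited values, and among fits leaving out a pair of arrays, which ranged from -0.23 to 0.13. PSBW ranged from -0.0071 to 0.14 in those fits. Of the 21 alternatives PSBW passed in 3, all with the position effect removed. Counts of all probes called ranged from 840 to 1732, and 1371 with the replicate block, which changed no call of the 6 genes in the fit without the position effect removed. Leaving out a pair of arrays gave 840 to 1299 probes and 2 of the 6 genes each time. The causes were not tested. Taking each own probe by itself changes nothing, since every gene has 1. The alternative without WT array 6, and those that remove the position effect without a floor or on deposited values, were added after seeing the data. Dim probes near the floor limit what can be said of AT1G76450 in flu to a level under the floor.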

Other observations

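The arrays numbered 1 and 2 stood apart for several light reaction probes. PSB27 had a normalised intensity of 0.453 in flu for that pair, beside 0.899 and 1.22 for the other flu pairs, and of 0.388 in WT, beside 1.26 and 1.25. The 0.388 includes WT array 2, which was under the floor at 0.212 and was raised to it. NdhN had 0.493 in flu, beside 1.29 and 1.65, and 0.422 in WT, beside 1.30 and 1.35. For PSAN the pair was apart in WT, at 8.10 beside 4.89 and 6.17, and in flu it was between the others, at 6.18 beside 6.59 and 5.28. PSBW showed 17.4 in flu for that pair, beside 18.9 and 19.4, and 20.6 in WT, beside 16.8 and 16.7.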
